A study of Mus musculus with 6 samples.

Results

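The transcripts of 10 mouse heat shock protein genes were followed in transplanted lung tumors after phycocyanin photodynamic therapy (PDT), a treatment in which light excites a photosensitizer in the tumor. The genes were Hspa1a, Hspa1b, Hspa8, Hsph1, Hsp90aa1, Hspd1, Dnajb1, Hspb1, Bag3 and Cryab. They were taken by symbol from the deposited expression table, and all 10 were found among its 21899 genes. The tumors grew in adult male C57BL/6 mice, whose age in weeks was not given, from LLC-luc cells injected under the skin of the chest. LLC-luc is a Lewis lung carcinoma line that carries luciferase, so every tumor came from a single transplanted line. Laser tumors (n = 2) were irradiated without a photosensitizer. PC-La tumors (n = 2) received phycocyanin (PC), a light-absorbing protein of cyanobacteria, by injection and were then irradiated. The labels place the injection in the tumor and the study's methods beneath it. SePC-La tumors (n = 2) received selenium-enriched phycocyanin (Se-PC) in the same way. All 3 groups thus shared the laser, which the labels give as 620 nm for 10 min at 4 h after an injection repeated every 5 days. The study's methods state another wavelength and interval. Tumors without irradiation were not analysed here. Nothing in the labels says that the samples of a group came from separate mice, so p-values measure only the spread between these samples, which may be technical.

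Heat shock proteins are chaperones that hold, refold or hand on proteins that have lost their shape. In stressed cells the transcription factor HSF1 is released from chaperones, binds heat shock elements in front of these genes and raises their transcription, most steeply for the inducible Hsp70 genes. Photodynamic therapy is known to damage proteins through reactive oxygen, and chaperone transcripts are commonly followed after it. Most of the 10 genes encode proteins of the cytosol, but the product of Hspd1 (HSP60) works in the mitochondrial matrix, so the group is not cytosolic throughout.

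Levels are given in FPKM, fragments counted on a gene per kilobase of exon and scaled to the fragments counted on all genes of a sample. The depth recovered from the values was 14447792 to 17649489 reads per sample. Pearson correlations of log2(FPKM + 1) over the 10853 genes tested, which are not independent replicates, were 0.9916 for the pair of PC-La samples, 0.972 for that of SePC-La and 0.9465 for that of Laser. Laser 2 stood apart from the rest, with correlations of 0.9331 to 0.9608, and SePC-La 1 was about as far from the samples outside its group, with 0.9306 to 0.9608. For some of the results that rest on either, values without it are given too. The tissue label is lung cancer, and 7 lung epithelium markers summed to 0.679 to 1.74 FPKM per sample, with Scgb1a1 listed at 0 in all of them. Keratinocyte markers of the overlying skin summed to 0.329 to 0.666 FPKM, and 4 of the 6 were at 0 throughout. In whole tumor RNA, fewer cells of a type and less RNA per cell cannot be told apart.

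Hspa8, Hsp90aa1 and Hspd1 were among the most abundant transcripts of the tumors, while the inducible Hsp70 genes and the small heat shock proteins Hspb1 and Cryab were low. By mean level over the 6 samples the order was Hspa8 (688 FPKM, rank 43 of the listed genes), Hsp90aa1 (319, rank 108), Hspd1 (312, rank 110), Bag3 (30.7), Hsph1 (27.5), Dnajb1 (23.6), Hspa1b (13.7), Hspb1 (3.09), Hspa1a (2.32) and Cryab (1.33). Of neighbours in that order, Hspa8 and Hsp90aa1 did not overlap in any sample, nor did Hspd1 and Bag3, and the ranges of all the other neighbouring pairs overlapped. Hsp90aa1 and Hspd1 could not be ordered, since Hsp90aa1 was the higher one in 1 of 6 samples. The abundant genes were also the steady ones. The highest sample was under 2 times the lowest for 5 genes (Hspa8, Hsp90aa1, Hspd1, Bag3 and Dnajb1) and 2.01 times for Hsph1. It was 16.7 times the lowest for Hspa1b, 12.1 times for Cryab, 11.3 times for Hspa1a and 6.86 times for Hspb1. SePC-La 1 held the highest value of 7 of the 10 genes, whereas the lowest values lay in Laser 2 (4 genes), PC-La 1 (4 genes) and PC-La 2 (2 genes).

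**Figure D1:**
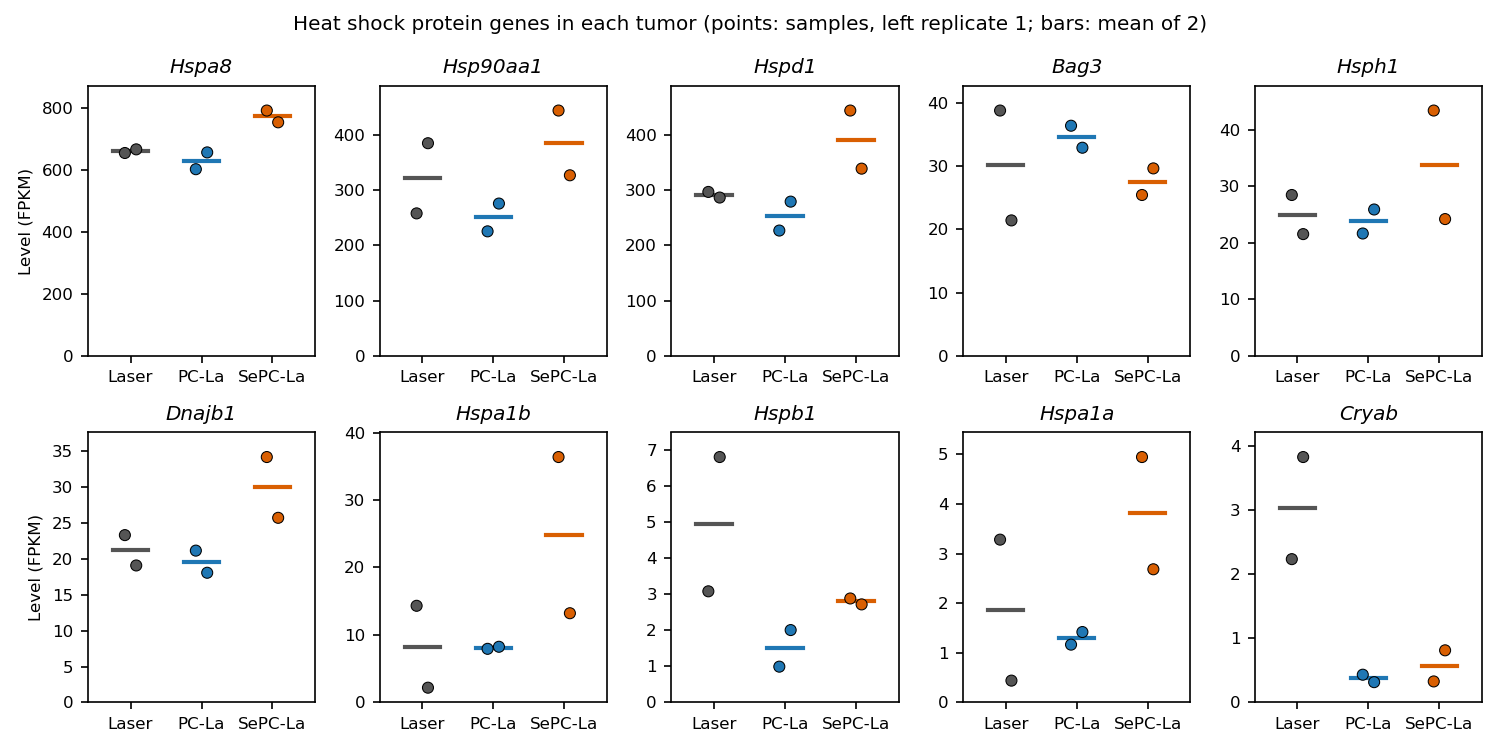
Level of each gene (y axis, FPKM from 0) in the 6 tumors by group (x axis), with points for samples (replicate 1 on the left) and bars for the mean of 2; panels run from the most to the least abundant gene. For Hspa1a and Hspa1b the Laser samples lie far apart, and both Cryab values of PC-La and SePC-La lie below both of Laser.

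Differences were tested with limma on log2(FPKM + 1), and a log2 fold change on that scale understates the change of low genes. A gene met the criterion of the study when its absolute log2 fold change was over 1 at an unadjusted p under 0.05. The study used these cut-offs with DESeq, so the calls made here with limma are not its own. Adjusted p-values are Benjamini-Hochberg values from limma over the 10853 genes tested. In none of the 3 comparisons did an adjusted p fall under 0.05 (0 genes, 0%), with 0 calls also by limma's voom method on recovered reads, against 627, 1318 and 2637 genes at an unadjusted p under 0.05 (5.78%, 12.1% and 24.3%) in PC-La against Laser, SePC-La against Laser and SePC-La against PC-La. All 10 heat shock genes passed the minimum mean of 1 FPKM. Cryab passed it only through its Laser values, and every PC-La and SePC-La value of it was under that minimum, so counts that include it are descriptions only.

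Of the 10 genes, Hspb1 and Cryab had the largest differences between PC-La and Laser tumors. These 2 met the criterion as lower and none as higher, where 1.29% of all genes met it, 0.424% as lower and 0.866% as higher. Both groups were apart, with PC-La lower, for 3 genes (Hspb1, Cryab and Hspd1), against 21.6% of all genes, and none was apart with PC-La higher, against 20.4%. Of the 10 fold changes, 8 were below 0, with a median of −0.11 beside −0.00 for all genes. In SePC-La against Laser, 1 gene met the criterion as lower (Cryab, with 0.138% of all genes lower) and none as higher (0.544%, or 0.682% in both directions). SePC-La lay above Laser without overlap for 3 genes (Hspa8, Hspd1 and Dnajb1, against 15% of all genes) and below it for 2 (Hspb1 and Cryab, against 25.6%). The median fold change was 0.32 beside −0.06 for all genes, with 7 of the 10 above 0. With quantile normalization it was 0.05, with 5 of the 10 above 0, and without SePC-La 1 it was 0.12. Both comparisons use the same Laser samples.

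SePC-La tumors held more of most heat shock transcripts than PC-La tumors, by modest amounts. In this comparison 9 of the 10 fold changes were above 0, with a median of 0.59 beside −0.07 for all genes. SePC-La lay above PC-La without overlap for 7 genes, against 26% of all genes, and below it for 1 (Bag3), against 39.5%. An unadjusted limma p under 0.05 was reached by 3 genes as higher (Hspd1, Dnajb1 and Hsp90aa1), against 9.91% of all genes, and by none as lower. No member met the criterion, which 2.98% of all genes met, 1.18% as higher and 1.8% as lower. Of all calls by the criterion 128 of 323 were higher, and this split moved to 166 of 315 with median-ratio scaling and 169 of 318 with quantile normalization. The count of 3 fell when SePC-La 1 or either PC-La sample was left out. The median fold change was then 0.40 without SePC-La 1 or without PC-La 1, and 0.66 without PC-La 2. It was 0.80 without SePC-La 2, so these values rest on single libraries. When the fit held PC-La and SePC-La alone, 7 genes were higher and 1 lower at that p, with an unchanged median of 0.59. The count thus also depends on whether the Laser samples enter the estimate of the spread.

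**Figure D2:**
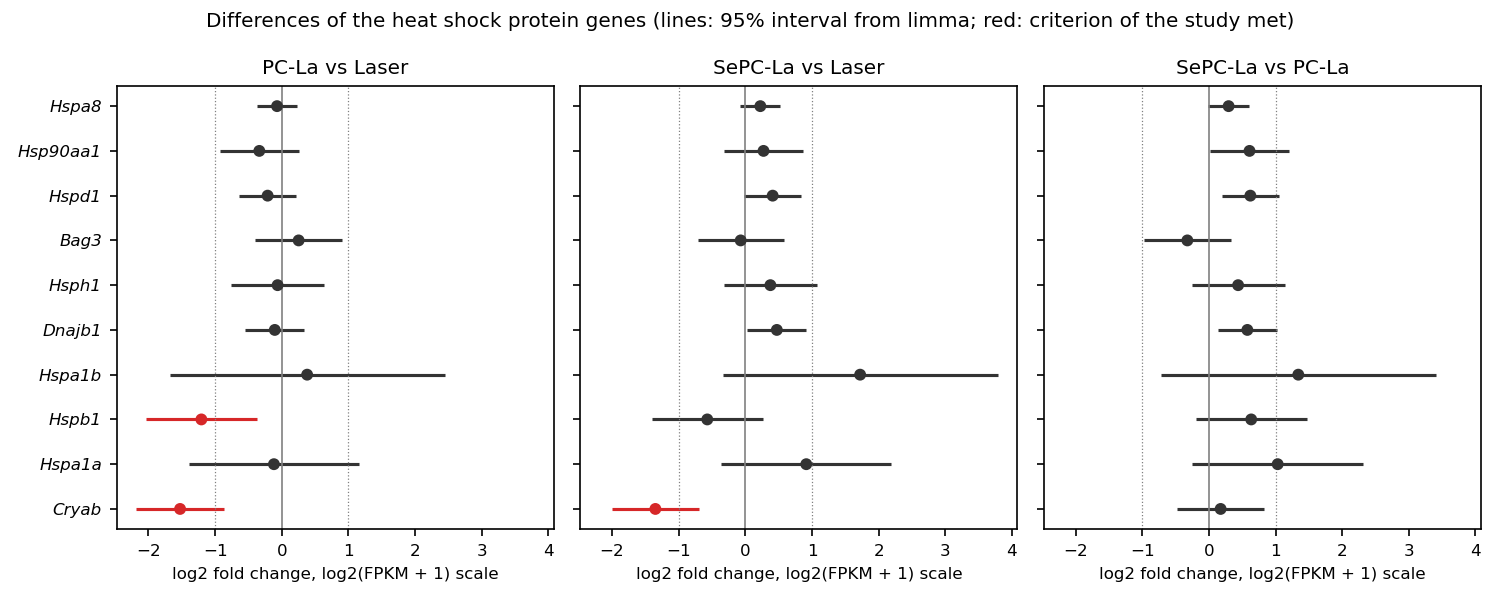
Log2 fold change of each gene (x axis, on the log2(FPKM + 1) scale) in the 3 comparisons, with lines for the 95% interval from limma and red for genes that met the criterion of the study. Cryab is red in both comparisons with Laser and Hspb1 in that of PC-La, and 9 of 10 points lie above 0 in SePC-La against PC-La.

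Hspa1a and Hspa1b are the inducible Hsp70 genes, a duplicated pair on chromosome 17 (GRCm38, minus strand) from 34969190 to 34972156 and from 34956436 to 34959238. Hspa1b stood at 14.3 and 2.18 FPKM for Laser, 7.94 and 8.25 for PC-La, and 36.4 and 13.2 for SePC-La. Hspa1a stood at 3.28 and 0.439 FPKM for Laser, 1.16 and 1.42 for PC-La, and 4.95 and 2.68 for SePC-La. For both genes SePC-La 1 was the highest sample, Laser 2 the lowest, and both SePC-La samples lay above both PC-La samples while the Laser samples spanned the PC-La values and overlapped SePC-La. Mean Hspa1b was 3.01 times higher in SePC-La than in Laser, with a log2 fold change of 1.72 (SE 0.86, limma adjusted p = 0.475). Against PC-La it was 3.06 times higher (log2 fold change 1.34, SE 0.86, limma adjusted p = 0.368). Hspa1a was 2.05 times the Laser mean (log2 fold change 0.91, SE 0.53, limma adjusted p = 0.511) and 2.95 times the PC-La mean (1.03, SE 0.53, limma adjusted p = 0.279). None of these 4 differences passed the test in the fit of all 6 samples. With either Laser sample left out, the difference from PC-La met the criterion for both genes, as it did when the fit held PC-La and SePC-La alone, and Hspa1a also met it with quantile normalization (1.25). The 2 Laser samples alone differed 6.56 times in Hspa1b and 7.47 times in Hspa1a.

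The comparison with Laser turned on which Laser sample was kept. Without Laser 1, SePC-La differed by 2.86 on the log2 scale for Hspa1b and by 1.70 for Hspa1a, and both met the criterion. Without Laser 2 the values were 0.59 and 0.13. In PC-La against Laser, Hspa1b was at 0.38 with both Laser samples, at 1.51 without Laser 1 and at −0.75 without Laser 2, and Hspa1a was at −0.12, 0.67 and −0.90. Neutrophil markers too were lowest in Laser 2 and highest in SePC-La. Their summed level over 8 genes was 183 and 40.1 FPKM for Laser, 168 and 99.2 for PC-La, and 386 and 503 for SePC-La, with SePC-La above Laser without overlap for 7 of the 8, against 15% of all genes. The part of neutrophils in the Hsp70 values was not tested. The 10 immediate early genes, which also answer to stress and handling, summed to 532 and 355 FPKM for Laser, 450 and 427 for PC-La, and 634 and 638 for SePC-La, with 3 of 10 above Laser without overlap, against 15% of all genes. Against PC-La 4 of them were above and 4 below without overlap, where 26% of all genes were above and 39.5% below.

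The 2 genes also share their control region. Both promoters are printed because the genes moved together over the samples. The capitals mark a match to the heat shock element, the HSF1 site made of inverted GAA units, in the 150 bases before the start site (RefSeq, GRCm38.p6). Hspa1a lies at chr17:34972157-34972306 and Hspa1b at chr17:34959239-34959388, both on the minus strand.
Hspa1a: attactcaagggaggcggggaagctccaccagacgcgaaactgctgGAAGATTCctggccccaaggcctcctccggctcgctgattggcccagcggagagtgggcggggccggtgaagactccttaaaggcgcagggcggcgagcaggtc
Hspa1b: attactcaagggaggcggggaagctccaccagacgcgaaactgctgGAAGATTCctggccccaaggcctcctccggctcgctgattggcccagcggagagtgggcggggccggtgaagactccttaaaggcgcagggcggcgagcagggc

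These stretches were identical at 149 of 150 positions, and each held a single match, which began at −104 from the start site. The search used GAANNTTC and TTCNNGAA, each its own reverse complement, and the longer GAANNTTCNNGAA and TTCNNGAANNTTC, which contain them and are reverse complements of each other. Of 32851 promoters with 250 bases before the start, 12.8% held a 2-unit form and 0.466% a 3-unit form. A match is a description of the letters and not a site shown to be bound. Promoter entries were found for 7 of the 10 genes, and 5 of these 7 (Hspa1a, Hspa1b, Hsph1, Hspd1 and Hspb1) held a 2-unit match. The 7 genes had 10 promoter windows, and a gene was counted if any of its windows matched. The shares above count single promoters, so the 2 are not on the same basis. For Dnajb1 and Bag3 neither form was in any window. Hspa8, Hsp90aa1 and Cryab had no entry. The transcripts share long stretches as well. Of the 100-base windows of Hspa1a, 47.1% occur in Hspa1b, so reads may have been split between them or dropped, and the 2 levels are uncertain for that reason. The ratio of Hspa1b to Hspa1a was between 4.37 and 7.35 in the 6 samples. The testis-type gene Hspa1l, which begins 546 bases from Hspa1a on the other strand, stayed at 0.196 to 0.492 FPKM.

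Hspa8 (HSC70), on chromosome 9 from 40800984 to 40810087, is the constitutive Hsp70 that folds new proteins and uncoats clathrin vesicles. It stood at 655 and 666 FPKM for Laser, 602 and 657 for PC-La, and 792 and 754 for SePC-La. Both SePC-La samples exceeded the other 4, by 1.17 times against Laser (log2 fold change 0.23, SE 0.13) and 1.23 times against PC-La (0.30, SE 0.13, limma adjusted p = 0.212). With quantile normalization both differences turned to −0.03. Of its 100-base windows, 63.4% occur in other annotated genes, most in Gm26825, so its level is uncertain too. The cochaperones of Hsp70 were less abundant. Hsph1 (HSP105), on chromosome 5 from 149614287 to 149636376, is an Hsp110 that exchanges nucleotide on Hsp70. It stood at 28.4 and 21.5 FPKM for Laser, 21.6 and 25.9 for PC-La, and 43.4 and 24.2 for SePC-La. Only SePC-La 1 was set apart, and the groups overlapped in every comparison, with fold changes of −0.06 to 0.44 (SE 0.29).

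Dnajb1 (HSP40), on chromosome 8 from 83608193 to 83612653, delivers substrates to Hsp70 and starts its ATP hydrolysis. It stood at 23.3 and 19.1 FPKM for Laser, 21.2 and 18.1 for PC-La, and 34.2 and 25.7 for SePC-La. SePC-La lay above both other groups without overlap. Its mean was 1.41 times that of Laser (log2 fold change 0.47, SE 0.18, limma adjusted p = 0.396) and 1.53 times that of PC-La (0.58, SE 0.18, limma adjusted p = 0.151). PC-La and Laser overlapped (−0.10, SE 0.18). Bag3, on chromosome 7 from 128523616 to 128546981, encodes a partner of Hsp70 that steers clients to autophagy, and it is an HSF1 target like Dnajb1. It was the only one of the 10 genes that was lower in SePC-La than in PC-La. It stood at 38.8 and 21.4 FPKM for Laser, 36.4 and 32.9 for PC-La, and 25.4 and 29.6 for SePC-La, a log2 fold change of −0.32 against PC-La (SE 0.27, limma adjusted p = 0.471). The Laser samples spanned both groups, and against Laser its fold change of −0.07 turned to 0.01 with median-ratio scaling.

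Hsp90aa1, on chromosome 12 from 110690605 to 110702728, encodes the inducible Hsp90 alpha, which stabilizes kinases and steroid receptors. It stood at 258 and 384 FPKM for Laser, 225 and 275 for PC-La, and 443 and 326 for SePC-La. SePC-La was above PC-La without overlap, 1.54 times (log2 fold change 0.61, SE 0.25, limma adjusted p = 0.20). The Laser samples overlapped both groups, and the difference of SePC-La from Laser, 0.27, was at −0.01 with quantile normalization. Of its 100-base windows, 47.5% occur in other annotated genes, most in Gm12346, so its level and rank are uncertain. Hspd1, on chromosome 1 from 55077835 to 55088243, encodes the mitochondrial chaperonin HSP60. It stood at 297 and 287 FPKM for Laser, 227 and 279 for PC-La, and 444 and 339 for SePC-La. The 3 groups did not overlap, with PC-La lowest, Laser between and SePC-La highest. Of its windows, 26.9% occur in other annotated genes, most in Hspd1-ps3. SePC-La was 1.55 times PC-La (log2 fold change 0.62, SE 0.18, limma adjusted p = 0.138) and 1.34 times Laser (0.41, SE 0.18, limma adjusted p = 0.421).

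Hspd1 stands head to head with Hspe1, the gene of its partner HSP10, and the stretch between them is shown because both levels can be read beside it. The capitals mark a run of overlapping heat shock element matches, with 3 of the 2-unit form and 2 of the 3-unit form (RefSeq, GRCm38.p6, chr1:55088053-55088082, plus strand). It lies between start sites that are 215 bases apart, with its matches beginning at −144 to −134 from Hspd1 and at −89 to −79 from Hspe1. Another annotated Hspd1 start site, at 55088243, lies upstream of it on the Hspd1 strand.
Hspd1 and Hspe1: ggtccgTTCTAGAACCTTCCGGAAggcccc

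Of the 7 genes with a promoter entry, Hspd1 was the only one with a 3-unit match. Hspe1 stood at 117 and 104 FPKM for Laser, 99.9 and 110 for PC-La, and 173 and 140 for SePC-La. Both SePC-La samples exceeded the other 4, by 1.42 times against Laser (log2 fold change 0.49, SE 0.15, limma adjusted p = 0.376) and 1.49 times against PC-La (0.57, SE 0.15, limma adjusted p = 0.134). The annotated genes overlap by 112 bases on opposite strands, and whether reads were counted by strand is not stated. Reads there cannot be assigned to either gene without strand.

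The small heat shock proteins hold unfolded clients without using ATP, and both were highest in Laser. Cryab, on chromosome 9 from 50751325 to 50756636, encodes alpha-B crystallin, which is abundant in muscle and lens. It stood at 2.24 and 3.83 FPKM in Laser, from 52 and 100 recovered reads. In PC-La it stood at 0.433 and 0.316 FPKM (10 and 7 reads) and in SePC-La at 0.328 and 0.813 (7 and 21 reads). Both Laser samples lay above the other 4, and PC-La and SePC-La overlapped. The mean was 0.123 times Laser in PC-La (log2 fold change −1.53, SE 0.27, limma adjusted p = 0.422) and 0.188 times Laser in SePC-La (−1.35, SE 0.27, limma adjusted p = 0.376). With a sample left out the fold changes were −1.81 to −1.24 in PC-La and −1.64 to −1.06 in SePC-La, and both met the criterion when no filter on low values was used. SePC-La and PC-La differed by 0.18 (SE 0.27, limma adjusted p = 0.705).

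Hspb1 (HSP27 in human, HSP25 in mouse), on chromosome 5 from 135887919 to 135889563, also guards actin filaments. It stood at 3.09 and 6.81 FPKM for Laser, 0.993 and 2.01 for PC-La, and 2.89 and 2.72 for SePC-La, from 16 to 124 recovered reads. In the values as deposited the 3 groups did not overlap, with PC-La lowest and Laser highest. Laser 1 (50 reads) and SePC-La 1 (43 reads) were close, and their order reverses when divided by their median-ratio factors, 1.04 and 0.937. Against Laser the log2 fold change was −1.21 in PC-La (SE 0.34, limma adjusted p = 0.742) and −0.57 in SePC-La (SE 0.34, limma adjusted p = 0.518). SePC-La exceeded PC-La by 0.64 (SE 0.34, limma adjusted p = 0.293). The PC-La call did not hold without Laser 2 (−0.74) or without PC-La 1 (−0.91). In SePC-La against Laser the value met the criterion without Laser 1 (−1.04) and was −0.10 without Laser 2. Of its 100-base windows, 42.7% occur in the pseudogene Hsp25-ps1, so its level is uncertain. Its promoter is shown for its pair of matches, in capitals, at −117 and −97 from the start site, within chr5:135887769-135887918 on the plus strand (RefSeq, GRCm38.p6).
Hspb1: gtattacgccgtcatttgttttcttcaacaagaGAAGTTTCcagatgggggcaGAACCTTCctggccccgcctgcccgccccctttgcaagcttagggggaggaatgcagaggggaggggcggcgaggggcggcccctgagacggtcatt

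Skeletal muscle markers were also highest in Laser. Their summed level over 12 genes was 25.8 and 174 FPKM for Laser, 4.35 and 3.69 for PC-La, and 1.77 and 7.50 for SePC-La. PC-La lay below Laser without overlap for 10 of the 12, against 21.6% of all genes, and SePC-La for 10, against 25.6%. Of the 12, 8 passed the minimum mean that these shares require. Markers such as Ckm, Myh4 and Atp2a1 passed it only through their Laser values and were under that minimum in every other sample. The counts are therefore descriptions only, and the shares are no yardstick for them. Acta1, the actin of skeletal muscle, stood at 8.28 and 46.4 FPKM in Laser and at 0 to 1.75 in the other samples. Desmin (Des), the muscle filament that alpha-B crystallin binds, stood at 1.42 and 17.6 in Laser and at 0.461 to 0.717 elsewhere. It is not one of the 12 but of 8 smooth muscle and mural markers, which did not move together. These 8 summed to 22.5 and 32.8 FPKM for Laser, 20.6 and 27.2 for PC-La, and 19.3 and 25.1 for SePC-La. Without overlap, 2 were above and 2 below Laser in PC-La (20.4% and 21.6% of all genes), and 2 above and 4 below in SePC-La (15% and 25.6%). Hspb7, a small heat shock protein of muscle, was at 0.391 and 4.79 FPKM in Laser and at 0.0462 or less elsewhere. Laser 2 was the highest sample for Cryab, Hspb1 and the skeletal muscle sum alike, while outside Laser the orders differed. The lowest skeletal muscle sum was in SePC-La 1 and the lowest Hspb1 in PC-La 1. Cryab was lowest in PC-La 2 (0.316 FPKM), close to SePC-La 1 (0.328), with 7 reads in each. The part of muscle in the small heat shock protein values was not tested. Hspb2, which overlaps Cryab by 1030 bases on the opposite strand, was listed at 0 in all 6 samples. Without strand, reads of that overlap cannot be told apart.

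**Figure D3:**
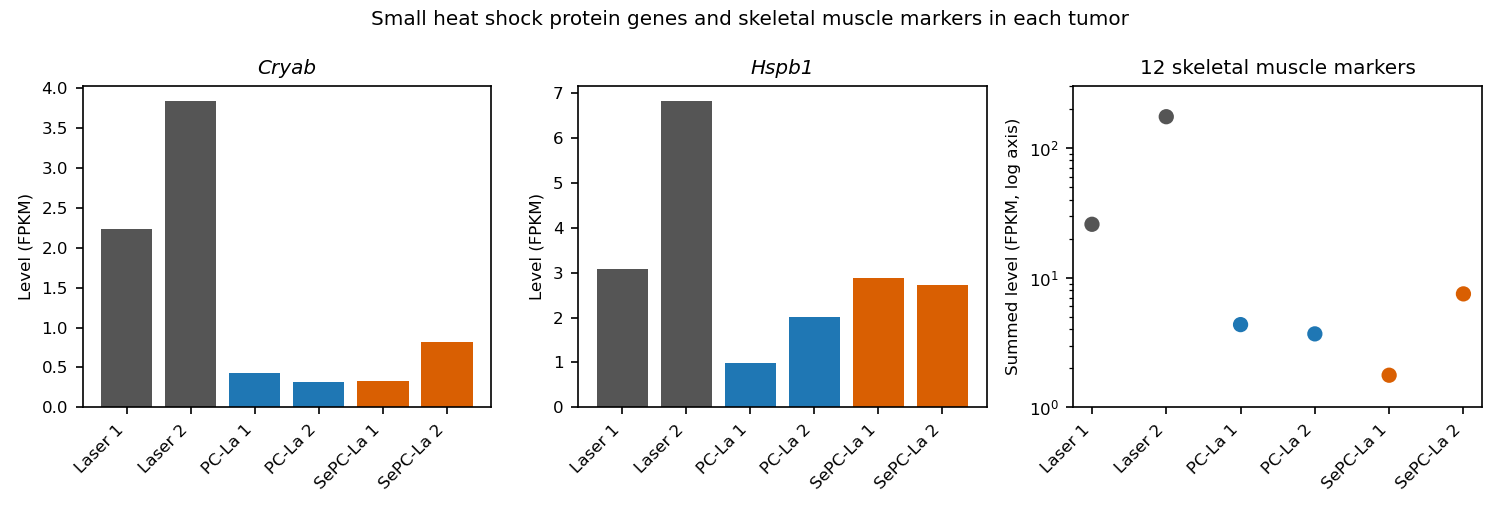
Cryab and Hspb1 levels (bars, FPKM from 0) and the summed level of 12 skeletal muscle markers (points, FPKM on a log axis) in each tumor, coloured by group. Laser 2 is the highest sample in all 3 panels, and both Laser samples exceed the other 4 for Cryab and for the muscle sum.

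The wider chaperone network was read from 8 lists with 62 genes, of which 53 passed the minimum mean. None met the criterion of the study in any comparison. With a sample left out, which was computed for 12 of these genes, 4 had a fold change over 1 in size. Hspa4l in PC-La against Laser ranged from −1.13 to −0.09, and Fkbp5 in SePC-La against Laser from −1.19 to −0.32. Both were largest in size without Laser 1. In SePC-La against PC-La, Lonp1 ranged from 0.46 to 1.08 and Hspa12b from −1.07 to −0.32. These 2 were largest in size without SePC-La 2. In SePC-La against PC-La 41 of the 53 lay above 0, with a median of 0.22, and 17 had an unadjusted limma p under 0.05 as higher and 3 as lower, against 9.91% and 14.4% of all genes. In SePC-La against Laser 7 were higher and 1 lower at that p, against 4.9% and 7.24% of all genes, and in PC-La against Laser none was, against 3.38% and 2.4%. For the factors that drive the response no difference passed. None of the 5 genes for HSF factors and their regulators passed an unadjusted p of 0.05. Hsf1 stood at 11.3 and 8.21 FPKM for Laser, 9.95 and 10.7 for PC-La, and 13.2 and 10.9 for SePC-La, with fold changes of 0.09 to 0.28 (SE 0.18). Hsbp1, which binds HSF1 and restrains it, was at 38.6 to 56.1 FPKM, with a fold change of −0.28 in SePC-La against PC-La (SE 0.15, limma adjusted p = 0.289).

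The chaperonin TRiC folds actin and tubulin in the cytosol and has 8 subunit genes. All 8 lay above 0 in SePC-La against PC-La, with fold changes of 0.29 to 0.61 and a median of 0.52. The groups did not overlap for any of the 8, where 26% of all genes were higher without overlap. At an unadjusted p under 0.05, 7 of them were higher, against 9.91% of all genes. Cct2 stood at 223 and 286 FPKM for Laser, 199.9 and 210 for PC-La, and 343 and 282 for SePC-La. Against Laser all 8 were above 0 in SePC-La (median 0.32, 3 higher at an unadjusted p under 0.05, against 4.9% of all genes) and below 0 in PC-La (median −0.22, none). The count of 7 was 0 without PC-La 1, 2 without SePC-La 1, 3 without PC-La 2 and 4 with quantile normalization, while all 8 stayed above 0 in each of these. The count of 3 was 6 without Laser 2, 2 without SePC-La 2 and 0 without any of the other 4 samples, with quantile normalization or when the fit held SePC-La and Laser alone.

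All 8 mitochondrial chaperones measured had fold changes above 0 in SePC-La against PC-La (median 0.36), and 4 were higher at an unadjusted p under 0.05, against 9.91% of all genes. Lonp1, a matrix protease, had the largest fold change of the 53 genes, 0.77 (SE 0.25, limma adjusted p = 0.16), from 35.2 and 32.6 FPKM to 72.7 and 46.9. Hspa9 (mortalin), the matrix Hsp70 that pulls proteins through the import channel, followed at 0.70 (SE 0.19, limma adjusted p = 0.134). For these 8 genes the count of 4 was 0 without PC-La 1, 1 without SePC-La 1 and 2 without PC-La 2. Among Hsp90 beta and the Hsp90 cochaperones, 8 of 9 genes tested were above 0 and 5 passed the unadjusted p, with 0 without PC-La 1, 1 without SePC-La 1, 2 without PC-La 2 or with quantile normalization, and 3 without SePC-La 2 or without trend and robust estimation. The background share at that p was 9.91% of all genes. Hsp90ab1, the constitutive Hsp90, stood at 1331 and 1543 FPKM for Laser, 1208 and 1169 for PC-La, and 2037 and 1598 for SePC-La, with a fold change of 0.60 against PC-La (SE 0.17, limma adjusted p = 0.136). Fkbp5, a glucocorticoid-induced partner of Hsp90, was the exception, with −0.76 against Laser (SE 0.32, limma adjusted p = 0.413) and −0.44 against PC-La.

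Of the Hsp70 partners, 7 of 8 lay above 0 in SePC-La against PC-La (median 0.20), and 1 was higher at an unadjusted p under 0.05, a share near the 9.91% of all genes. That gene was Bag2, which inhibits the ubiquitin ligase CHIP. It stood at 9.73 and 11.7 FPKM for Laser, 8.30 and 8.83 for PC-La, and 13.3 and 15.1 for SePC-La, a fold change of 0.67 (SE 0.14, limma adjusted p = 0.126). Bag5, its relative, was at −0.36 in PC-La against Laser (SE 0.19, limma adjusted p = 0.753). The other Hsp70 and Hsp110 genes did not share the direction. Of the 6 tested, 3 were below 0 in SePC-La against PC-La. An unadjusted limma p under 0.05 was reached by 2 of these, where 14.4% of all genes were lower at that p. They were Hspa12b (−0.69, SE 0.25, limma adjusted p = 0.179) and Hspa13 (−0.52, SE 0.20, limma adjusted p = 0.187). Without SePC-La 1 their fold changes were −0.32 and −0.24. Hspa2, the Hsp70 of the male germ line, was at −0.60 in SePC-La against Laser (SE 0.23, limma adjusted p = 0.388) and Hspa4l at −0.61 in PC-La against Laser (SE 0.34, limma adjusted p = 0.753). The other J-domain genes had a median of −0.03 in SePC-La against PC-La, with Dnajb2 at −0.52 (SE 0.20, limma adjusted p = 0.193). Of the other small heat shock proteins 3 of 7 were tested, at 0.17 to 0.24 in this comparison with none past the unadjusted p.

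**Figure D4:**
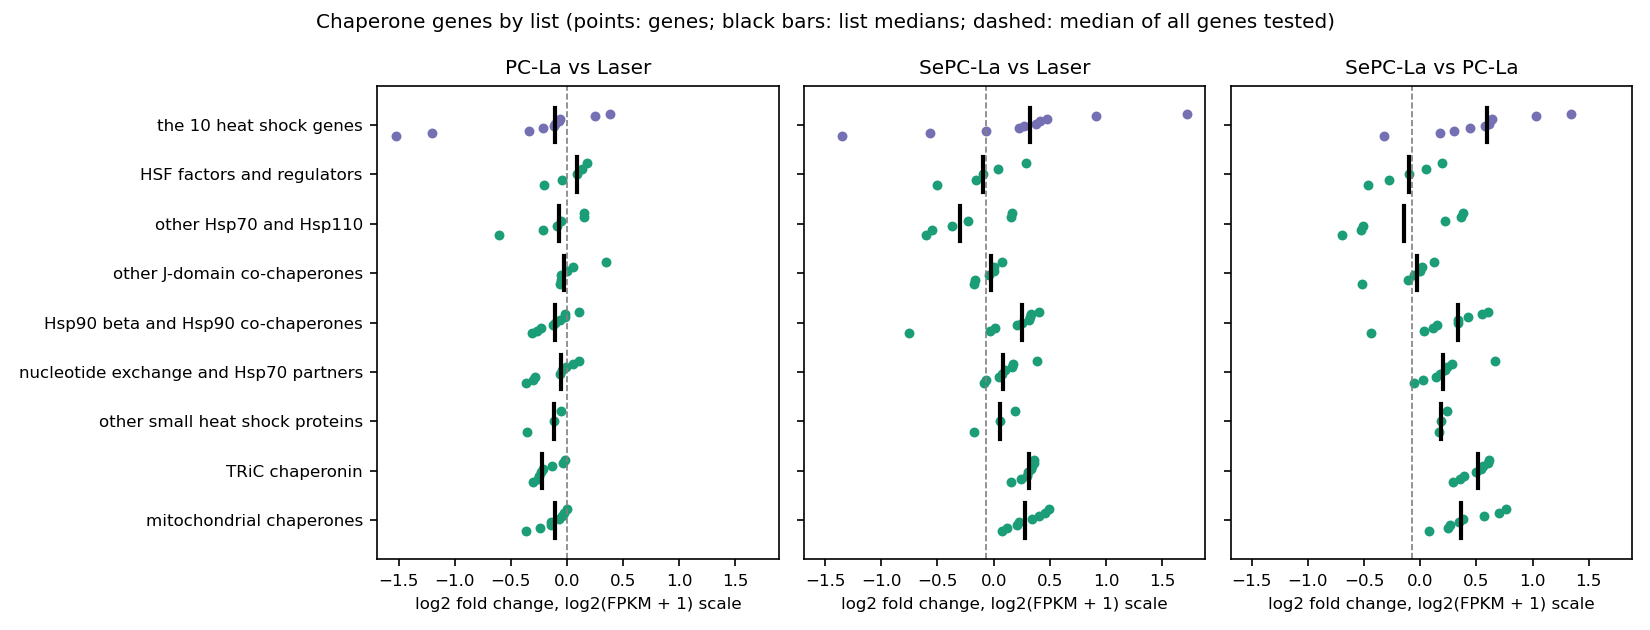
Log2 fold changes (x axis, on the log2(FPKM + 1) scale) of the tested genes of each chaperone list in the 3 comparisons, with a point per gene, black bars for list medians and a dashed line for the median of all genes. In SePC-La against PC-La all 8 TRiC genes and all 8 mitochondrial chaperones lie above 0.

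Proliferation genes moved in the same direction as the chaperonins. The summed level of 10 such genes was 402 and 497 FPKM for Laser, 392 and 415 for PC-La, and 522 and 485 for SePC-La, and 9 of the 10 were above PC-La without overlap in SePC-La, against 26% of all genes. Fibroblast markers moved the other way, with sums of 1420 and 330.2 FPKM for Laser, 2028 and 1792 for PC-La, and 131 and 731 for SePC-La and 6 of 8 markers lower in SePC-La than in PC-La without overlap, against 39.5% of all genes. The part of either in the chaperone values was not tested. The other lists gave sums of 971 to 2095 FPKM for macrophages, 29.7 to 48.8 for endothelium, 19.3 to 32.8 for smooth muscle and mural cells, 4.94 to 15.5 for T cells and 1.63 to 56.3 for adipocytes.

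For the 4 most variable genes, the transcripts with the nearest profile over the 6 samples were sought by the root mean square distance of centred log2(FPKM + 1) values. Candidates had a standard deviation of at least 0.5 times that of the gene. For Hspa1a they were Smox, a polyamine oxidase (distance 0.152), Rab44 (0.167) and H3c11 (0.183). For Hspa1b they were Pgf, a vascular growth factor (0.23), Nos2, the inducible nitric oxide synthase (0.316), and Smox again (0.379). Nos2 stood at 22.8 and 5.03 FPKM for Laser, 9.93 and 10.4 for PC-La, and 38.9 and 25.5 for SePC-La, so SePC-La 1 was its highest and Laser 2 its lowest sample, as for the Hsp70 pair. For Cryab they were Gzmf, a granzyme (0.282), Ms4a4a (0.302) and Sult1a1 (0.316), and for Hspb1 Ulbp1, an NKG2D ligand (0.159), Rnf225 (0.191) and Scn9a (0.207). These distances describe 6 samples and carry no test.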

How the data were processed

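RNA of 6 tumors, 2 per group, was sequenced from NEBNext Ultra II libraries. The authors deposited a table with 1 value per gene and sample, and the unit is not named. The values behaved as FPKM as deposited by the authors: multiplied by GENCODE M21 exon lengths, they gave whole reads (within 0.01 read) in all samples for 97.7% of expressed genes. The submitters' processing notes name HISAT2 2.0.5, HTSeq 0.9.1, DESeq 1.30.0 and the build mm9, without roles. Coordinates here are GRCm38 and were matched by gene identifier. The annotation and the strand setting are not given in the sources used here.

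Values were used without further scaling. With a pseudocount of 1 and a minimum mean of 1 FPKM, limma 3.58.1 in R 4.3.3 was fitted to all 6 samples with 1 mean per group, trend and robust moderation, and 95% intervals. The fit was tested on simulated data. The genes, the chaperone and marker lists and the tests were chosen with earlier results of these data known. Named were the 10 genes, their neighbours Hspb2 and Hspa1l, the 3 highest and 3 lowest fold changes of the other chaperone lists per comparison, the 3 genes nearest in profile to the 4 most variable genes, and markers that a list needs. Hsf1, Hsp90ab1, Cct2 and Hspb7 were named after their values were seen, as were Nos2's values by sample. Alternatives were a pseudocount of 0.1, no filter, a minimum of 5 FPKM, median-ratio scaling, quantile normalization, only the 4 samples compared, the replicate number as a block, no trend and no robust estimation, limma's voom on recovered reads, and each sample left out. Tables and figures were made with Python 3.11.15.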

Additional observations from a re-analysis of the deposited data

Results flagged for a closer look

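Hspd1, which encodes the mitochondrial chaperonin HSP60, drew attention because both PC-La samples (227 and 279 FPKM) lay below both Laser samples (297 and 287), and both SePC-La samples (444 and 339) lay above them. The SePC-La against PC-La log2 fold change was 0.6222 (SE 0.18, limma adjusted p = 0.138), and no further test of the 2 opposite directions was made. Bag2, an Hsp70 partner that inhibits CHIP, had the same arrangement, with 8.30 and 8.83 FPKM in PC-La, 9.73 and 11.7 in Laser and 13.3 and 15.1 in SePC-La. Its log2 fold change was 0.6693 (SE 0.14, limma adjusted p = 0.126).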

How the results depend on the processing

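With 2 samples per group, single libraries moved most results, and no adjusted p was under 0.05. The genes that met the criterion numbered 140, 74 and 323 in PC-La against Laser, SePC-La against Laser and SePC-La against PC-La. A minimum of 5 FPKM, which tests fewer genes, gave 68, 46 and 186. A pseudocount of 0.1 gave 129 and 488 in the latter 2, and voom gave 221 and 130 in the first 2. The cause was not tested for the pseudocount and voom. Leaving out 1 sample, with the lone sample of its group assumed to vary like the others, gave 71 to 664, 60 to 253 and 169 to 584. The first count was highest without Laser 1, and the third was lowest without SePC-La 1 and highest without SePC-La 2.

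Some values of the heat shock genes changed sign. Hspa1a in PC-La against Laser (−0.12) was 0.038 with a pseudocount of 0.1 and 0.16 with voom. Quantile normalization gave −0.031 and −0.029 for Hspa8 in SePC-La against Laser and PC-La and −0.0090 for Hsp90aa1 in SePC-La against Laser, and median-ratio scaling gave 0.0095 for Bag3 in SePC-La against Laser. The cause was not tested. With a sample left out, 12 of 180 values of the heat shock genes changed sign, 8 gained and 2 lost the criterion. The ranges of those that changed sign in PC-La against Laser were −0.90 to 0.67 for Hspa1a, −0.75 to 1.51 for Hspa1b, −0.26 to 0.13 for Hsph1, −0.24 to 0.033 for Dnajb1 and −0.16 to 0.67 for Bag3. In SePC-La against Laser they were −0.032 to 0.78 for Hsph1, −0.015 to 0.56 for Hsp90aa1 and −0.48 to 0.34 for Bag3, and in SePC-La against PC-La −0.049 to 0.40 for Cryab. Of the other named chaperones, they were −0.75 to 0.29 for Hspa4l, −0.25 to 0.082 for Bag5, −0.22 to 0.029 for Hsbp1 and −0.46 to 0.13 for Dnajb2 in SePC-La against Laser, and −0.75 to 0.12 for Fkbp5, −0.23 to 0.051 for Hspa2 and −0.15 to 0.0084 for Hspe1 in PC-La against Laser.

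The labels number the samples 1 and 2 in each group. For samples with the same number, the correlations of deviations were 0.086, −0.428 and −0.177. The 2 deviations of a group mirror each other, so the −0.428 of Laser and SePC-La is a positive correlation for samples with unlike numbers. Whether samples of different groups shared a batch cannot be told from these values. With the replicate number as a block, 133, 81 and 285 genes met the criterion in the 3 comparisons, and of the heat shock genes only Hspa1b in SePC-La against Laser changed its call (1.72). At an unadjusted p under 0.05 the block moved the TRiC genes higher in SePC-La against Laser from 3 to 1, and the Hsp90 list in SePC-La against PC-La from 5 to 2.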
